A study of Caenorhabditis elegans with 95 samples.

Results

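Libraries of series C, the 11 recombinant inbred advanced intercross lines (RIAILs) whose library names begin with the letter C, were compared across genes with the 74 RIAIL libraries named with A, B, D, E, F or G, out of 95 libraries in all. The members were chosen by their genotype label, which begins with QX, and by the first letter of the library name in the count table. Each RIAIL was represented by 1 library of whole worms. The 11 strains of series C were QX538, QX539, QX540, QX541, QX542, QX543, QX544, QX546, QX562, QX563 and QX564, and the other series held 7 (A), 10 (B), 13 (D), 11 (E), 19 (F) and 14 (G) strains. RIAILs are inbred lines of *Caenorhabditis elegans* from an intercross of QX1430, a strain of N2 (Bristol) background that carries deletions of confounder genes, with the Hawaiian wild strain CB4856. All worms, parental strains included, were exposed to doxycycline (Dox) at 15 μg/mL, an antibiotic that interferes with mitochondrial translation, so no group here was free of Dox. By the study's methods the worms were put on Dox as L1 larvae and harvested at the L4 stage, and the labels do not settle whether these worms also received 5FU, a compound that blocks DNA synthesis. What the letter stands for (a plate, a day or another grouping) is not stated in the labels. No RIAIL was sequenced in more than 1 series, so in the RIAILs the series and its set of strains cannot be told apart. The parental strains cross the series, since 1 of the 6 CB4856 libraries, C2, belongs to series C and the other 5 to series A, B, E, F and G, while none of the 4 N2 libraries does.

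Claudin-like proteins and tetraspanins are small membrane proteins with 4 membrane-spanning segments that take part in cell junctions and in organising the cell surface, and in the worm several of them act in epithelia such as the intestine, epidermis and pharynx. The intestine is also the main tissue of the worm's innate immune and detoxification responses, where a p38 MAP kinase pathway drives secreted lectins, lysozymes and CUB-domain proteins, and where enzymes of 3 phases of xenobiotic metabolism are induced by foreign compounds and microbes. fmo-2 encodes a flavin-containing monooxygenase that is known to be induced by fasting, hypoxia, oxidative stress and bacterial pathogens through transcription factors such as NHR-49, HIF-1 and HLH-30.

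Total counts were close, with a lowest, median and highest of 22121202, 22639438 and 23077924 in series C, against 22441342, 23284139 and 23879871 in the other series. The mean total was 22572000 in series C and 23285000 in the other series (difference -712300, adjusted p = 8.00e-05, permutation test, two-sided, 4 library properties). For the number of genes with at least 1 count (mean 19970 in series C and 19844 in the other series, adjusted p = 0.101), the share of counts on mitochondrial DNA genes (0.758% and 0.808%, adjusted p = 0.499) and the share in the 100 most abundant genes (26.1% and 26.7%, adjusted p = 0.0904), the permutation test did not pass the threshold of 0.05. Stage scores, which are mean z scores of log2 expression over molting, sperm and oocyte genes, had medians of 0.584, -0.0861 and -0.604 in series C, against 0.0192, 0.226 and -0.0912 in the other series, with overlapping ranges. Leaving out the strains QX501 and QX505, both outside series C, changed none of the 4 calls on library properties.

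The 5 marker genes of series C differed in level from every other series. They were taken as markers of series C with earlier results of these data known. Their p-values in these libraries are therefore no independent support. Expression is given as CPM, read counts scaled to a common library total by the trimmed mean of M values (TMM), as the lowest, median and highest library of each group. cld-1 (chromosome IV, 12935011 to 12936271, WBcel235), whose symbol marks it as claudin-like, had 2.59, 17.99 and 31.7 CPM in series C, against 0, 0.291 and 1.75 CPM in the other series. All 11 series C libraries were above all 74 others, and in 4 of the 74 no read of cld-1 was counted. The log2 fold change was 5.46 ± 0.29 (standard error), with an adjusted p of 4.50e-28 in edgeR's quasi-likelihood test. Within series C the level itself varied, with 2.59 CPM in QX542 and 31.7 CPM in QX539. In bulk RNA, a change in the number of cells that express a gene and a change in RNA per cell cannot be told apart.

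clc-1 (chromosome X, 11047446 to 11049275), a claudin-like protein of epithelial junctions known from the pharynx, had 68.5, 90.7 and 139.7 CPM in series C, against 22.7, 38.9 and 53.7 CPM in the other series. The groups did not overlap, and the log2 fold change was 1.35 ± 0.07 (edgeR adjusted p = 4.62e-27). cld-9 (chromosome V, 13749181 to 13751891), also named as claudin-like, had 42.9, 58.5 and 100.9 CPM in series C, against 18.3, 26.4 and 46.8 CPM in the other series, where 1 library reached the lowest of series C. Its log2 fold change was 1.32 ± 0.09 (edgeR adjusted p = 5.27e-22). tsp-2 (chromosome III, 8236928 to 8237935), a tetraspanin, had 2.98, 5.36 and 13.4 CPM in series C, against 0.196, 0.801 and 2.19 CPM in the other series, with no overlap and a log2 fold change of 2.89 ± 0.17 (edgeR adjusted p = 9.73e-25).

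fmo-2 (chromosome IV, 10682524 to 10684367) went the other way. It had 0.0889, 0.179 and 0.499 CPM in series C, against 1.97, 7.79 and 44.3 CPM in the other series. In counts, the 11 series C libraries held 2 to 11 reads each and 56 in sum, against 48 to 1023 reads in each of the 74 other libraries. The groups were far apart, with a log2 fold change of -5.63 ± 0.55 (edgeR adjusted p = 8.95e-14). Among the other series fmo-2 also varied, with a median of 27.3 CPM in series G and 4.79 CPM in series F. The other 4 flavin monooxygenase genes had log2 fold changes of up to 0.34, and none of them passed the test.

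Set against each of the 6 other series alone, the 5 markers kept their direction. The log2 fold change of cld-1 lay between 4.93 (against series G) and 6.02 (against series A), that of clc-1 between 1.25 and 1.48, and that of fmo-2 between -6.80 (against series G) and -4.59 (against series F). All 5 markers passed the threshold in all 6 contrasts.

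**Figure D1:**
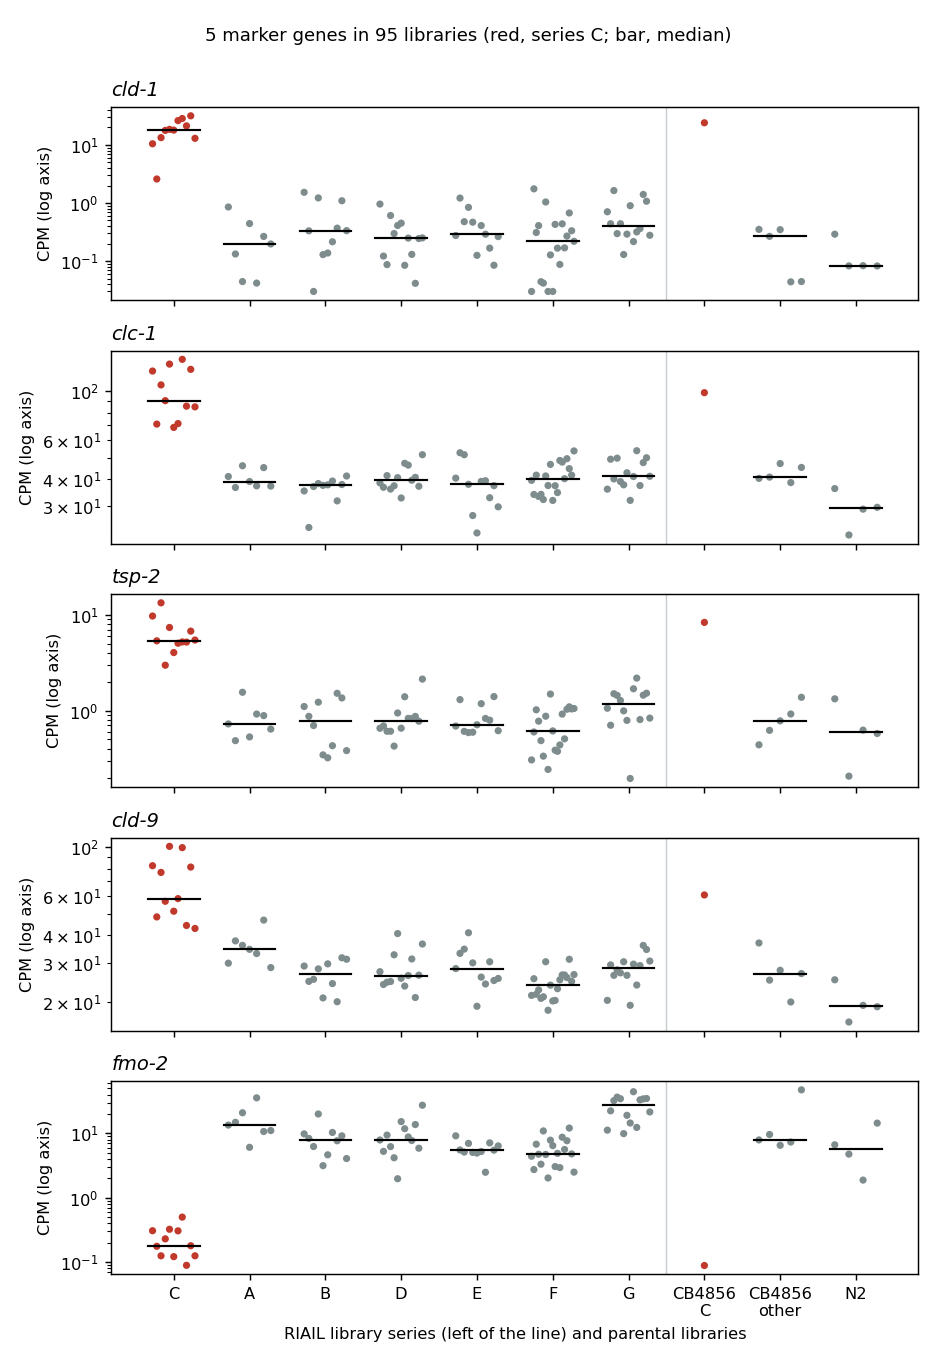
CPM (log axis) of the 5 markers in each library, by series of the RIAILs, and in the parental libraries, with series C and the CB4856 library C2 in red and the group median as a bar. Values under 0.03 CPM are drawn at 0.03. The 11 series C libraries have 2.59 to 31.7 CPM of cld-1 and 0.0889 to 0.499 CPM of fmo-2.

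Across the 16417 genes tested, 2186 were higher in series C (13.3% of genes tested) and 1890 were lower (11.5%) at an edgeR adjusted p under 0.05, and the median log2 fold change over all genes was -0.02. Most differences were small. Of the genes that were higher, 1246 differed by less than 0.5 on the log2 scale and 318 by at least 1, and of those that were lower, 1522 differed by less than 0.5 and 180 by at least 1. The other series gave fewer calls when each was set against all other RIAILs, with 1304 genes higher (7.81%) and 1025 lower (6.14%) for series A and 1120 (6.93%) and 1759 (10.9%) for F. For E the counts were 480 (2.92%) and 306 (1.86%), for B 323 (1.96%) and 211 (1.28%), for G 139 (0.852%) and 80 (0.49%) and for D 4 (0.0245%) and 30 (0.184%). Group sizes differ between these comparisons.

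In pairwise contrasts from 1 fit over the 7 series, series C differed least from series B, with 654 genes higher (3.92%) and 875 lower (5.24%), and most from series F, with 2994 (17.9%) and 2657 (15.9%). Series D came next to F, with 2602 (15.6%) lower and more genes higher than against any series but F. Against series A 2352 (14.1%) were higher and 1878 (11.3%) lower, against G 1706 (10.2%) and 1280 (7.67%), and against E 1331 (7.98%) and 1478 (8.86%). A set of 254 genes was higher in series C than in each of the 6 others (1.52% of 16686 genes tested) and 172 genes were lower than in each (1.03%). No member of the lists of epithelial junctions, nuclear oxidative phosphorylation, endoplasmic stress, heat shock, oocyte or molting genes described below was among them.

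Genes whose values in series C lay wholly above or below those of the 74 other libraries were few. 11 genes lay wholly above (0.067% of genes tested), and fmo-2 alone lay wholly below (0.00609%). By gap on the log2 CPM scale, fmo-2, F27E5.9, cld-1, tsp-2 and clc-1 stood furthest apart. F27E5.9 (chromosome II), with no role given here, had 10.8, 13.3 and 17.8 CPM in series C, against 2.70, 4.94 and 7.29 CPM in the other series, a log2 fold change of 1.51 ± 0.09 (edgeR adjusted p = 4.48e-24).

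cpr-3, a cysteine protease of the cathepsin B family, had 46.96, 66.9 and 94.9 CPM in series C, against 10.4, 17.1 and 40.2 CPM in the other series, also without overlap (log2 fold change 1.88 ± 0.12). ttm-5, named for its induction by a pore-forming toxin, had medians of 33.2 CPM in series C and 21.2 CPM in the other series, and dct-17, from a screen for genes downstream of DAF-16 that bear on tumours, had medians of 122 CPM in series C and 45.0 CPM in the other series, both without overlap. The remaining genes with separate ranges were F57B9.3, C08E8.4, K12H4.7 and asah-2, the last named as an acid ceramidase, which were picked out only after their values were seen. asah-2 had 100.5, 125 and 147 CPM in series C, against 18.7, 62.6 and 98.1 CPM in the other series.

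Of the other genes with the smallest p among those higher, B0024.4 (log2 fold change 3.07 ± 0.20) and Y65B4BR.1 (3.15 ± 0.22) had the largest log2 fold changes. B0024.4 had medians of 64.8 CPM in series C and 7.24 CPM in the other series, and 2 of the 74 other libraries reached the lowest value of series C. dod-19, a gene downstream of DAF-16 and abundant in these worms, had medians of 739.6 CPM in series C and 264 CPM in the other series (log2 fold change 1.38 ± 0.11). Y37H2A.14, F20G2.5 and C49C3.9 had log2 fold changes of 1.97, 1.98 and 1.32. tag-120 and dhs-22, a short-chain dehydrogenase, had smaller ones of 0.87 and 0.39 and were higher in every one of the 6 contrasts all the same.

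Among genes that were lower, the smallest p after fmo-2 belonged to H04M03.3, with 1.21, 1.78 and 2.69 CPM in series C, against 1.49, 5.998 and 12.1 CPM in the other series (log2 fold change -1.73 ± 0.19, edgeR adjusted p = 1.43e-11). The ranges touched, since 3 other libraries were at or below the highest of series C. adh-1, an alcohol dehydrogenase, had 3.33, 7.78 and 18.5 CPM in series C, against 14.9, 46.2 and 187 CPM in the other series (log2 fold change -2.42 ± 0.32), and C30G12.2 had medians of 10.7 CPM in series C and 64.9 CPM in the other series (log2 fold change -2.31 ± 0.31). gst-4, a glutathione S-transferase used as a reporter of oxidative stress through SKN-1, had medians of 13.3 CPM in series C and 32.2 CPM in the other series (log2 fold change -1.33 ± 0.19).

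The rest of the genes lower by smallest p showed small and even shifts. sucg-1, a subunit of the mitochondrial succinyl-CoA ligase, had a log2 fold change of -0.40 ± 0.05, acl-3, the worm tafazzin that remodels cardiolipin, -0.30 ± 0.04, and T22D1.3 -0.26 ± 0.04. mrpl-51 and mrpl-12, proteins of the mitochondrial large ribosomal subunit, had -0.34 ± 0.05 and -0.42 ± 0.06. T22D1.3, mrpl-12 and tag-120 overlap a gene on the opposite strand that also carries reads (ruvb-2, W09D10.5 and xbx-6), as do F57B9.3, asah-2, ctl-2, sod-2, clpp-1 and ire-1, and gst-4 overlaps dhs-12 on its own strand, so reads of each pair could not be assigned with certainty.

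**Figure D2:**
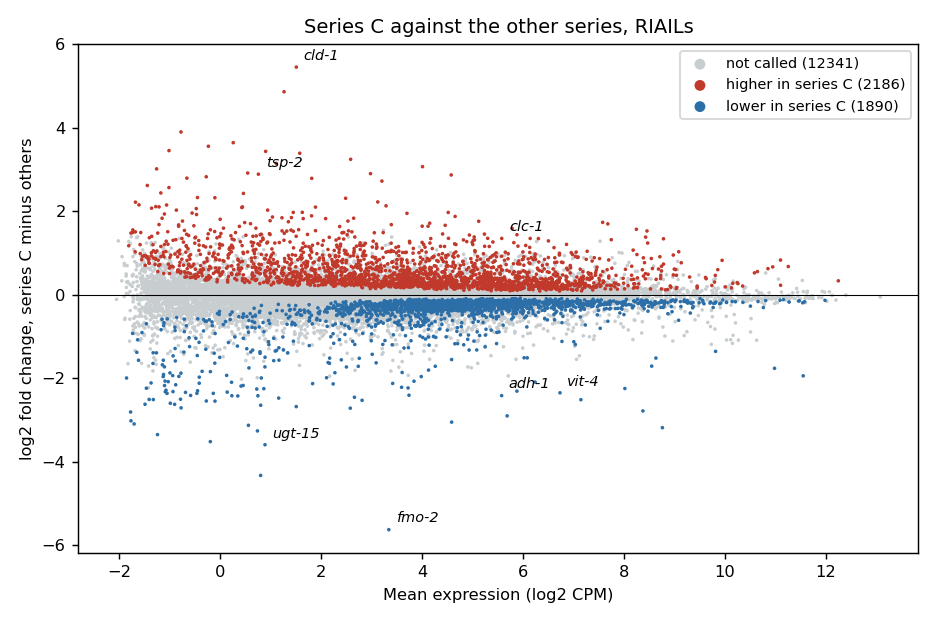
Log2 fold change of each of 16417 genes (series C minus the other series, 11 and 74 RIAIL libraries) against mean expression in log2 CPM, with genes higher in series C in red (2186) and lower in blue (1890). cld-1 at 5.46 and fmo-2 at -5.63 lie at the outer edges, while most called genes lie close to 0.

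The claudin-like list, which holds 3 of the markers, had many members higher. Counts in this list and in those below stand against all genes tested, of which 13.3% were higher and 11.5% lower. Of 36 claudin-like genes listed, 29 were tested, 17 were higher and none was lower, with a median log2 fold change of 0.37 against -0.02 over all genes, and 6 of them were higher in all 6 contrasts. Their summed level was 351, 421 and 529.8 CPM in series C, against 217, 254 and 306 CPM in the other series, with no overlap. Without cld-1, clc-1 and cld-9, a choice made after seeing the data, 14 of 26 were higher (median log2 fold change 0.33) and the sum was 209.8, 252 and 312 CPM in series C, against 156, 187 and 229.5 CPM in the other series. The sum then overlapped, with 10 of the 74 other libraries at or above the lowest of series C, so the full sum was separate only with the markers in it. clc-25 had 8.74, 12.81 and 16.54 CPM in series C, against 3.09, 5.93 and 11.7 CPM in the other series (log2 fold change 0.99 ± 0.12). vab-9 and hpo-30, claudin-like proteins known for epidermal junctions and for dendrite branching, were also among the 17. With stage scores as covariates 12 of 31 tested were higher, and with a vitellogenin score added 11.

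Tetraspanins showed a narrower pattern. Of 20 tested, 7 were higher and none lower (median log2 fold change 0.09), against 13.3% higher and 11.5% lower over all genes. With stage scores as covariates 3 were higher. tsp-1, which begins 65 bases beyond tsp-2 on chromosome III, had 1.19, 3.31 and 8.66 CPM in series C, against 0.176, 0.702 and 4.04 CPM in the other series (log2 fold change 2.09 ± 0.23), and 14 of the 74 other libraries were at or above the lowest of series C. tsp-14, which modulates BMP signalling, had a smaller log2 fold change of 0.36 ± 0.09.

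For the structural proteins of epithelial junctions and polarity, 8 of 18 tested were higher and none lower (median log2 fold change 0.22). Over all genes 13.3% were higher and 11.5% lower. sma-1, the heavy beta-spectrin of the apical membrane, rose by 0.45 ± 0.10 on the log2 scale, hmr-1, a cadherin, by 0.45 ± 0.13, and let-413, the Scribble homologue, by 0.21 ± 0.05. The count fell to 4 without QX562 or QX563, to 5 without QX542, QX543 or QX544, and to 4 with stage scores as covariates.

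Effectors of the p38 immune pathway were the list with the highest share of genes higher in series C. Of 15 tested, 14 were higher (median log2 fold change 1.01) and 8 of them in all 6 contrasts, against 13.3% of all genes that were higher in series C. Their summed level was 3108, 4570 and 5939 CPM in series C, against 1037, 1914 and 3811 CPM in the other series, so the ranges overlapped at their edges. Over all alternatives 11 to 14 of the 15 were higher. The member that did not pass was irg-6 (log2 fold change 0.63 ± 0.55), which ran from 0.0391 to 25.4 CPM within the other series.

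lys-7, an antimicrobial lysozyme, had 418, 795 and 1125 CPM in series C, against 83.2, 246 and 636 CPM in the other series (log2 fold change 1.53 ± 0.17). dod-24, a CUB-like domain protein, had 389.7, 704 and 1131 CPM in series C, against 39.5, 225 and 569 CPM in the other series (log2 fold change 1.57 ± 0.18), and lies 3834 bases beyond cld-1 on chromosome IV. hpo-6, named for hypersensitivity to a pore-forming toxin, and C17H12.8, a CUB-like domain protein, had log2 fold changes of 1.01 ± 0.11 and 1.24 ± 0.15. At least 62 of the 74 other libraries lay below the lowest series C library for each of these 4 genes.

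Lectins and lysozymes moved in the same direction. Of 143 C-type lectin genes tested, 53 were higher and 8 lower (median log2 fold change 0.32), and 18 were higher in all 6 contrasts. Over all genes 13.3% were higher and 11.5% lower. The count lower was 4 or 5 without QX538, QX542, QX544, QX546 or QX563. clec-42 had 11.3, 23.5 and 76.2 CPM in series C, against 0.400, 3.39 and 16.39 CPM in the other series (log2 fold change 2.90 ± 0.28), and clec-17 had 21.6, 28.1 and 59.9 CPM, against 0.753, 3.85 and 37.2 CPM in the other series (log2 fold change 2.726 ± 0.26). clec-174 had the largest log2 fold change of the list, 3.44 ± 0.35, with medians of 8.85 CPM in series C and 0.413 CPM in the other series. The abundant clec-41 had medians of 572 CPM in series C and 133 CPM in the other series.

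Of 13 lysozymes 7 were higher, among them lys-7, lys-1 (medians of 1593 CPM in series C and 870.2 CPM in the other series) and lys-8 (515 CPM in series C and 354 CPM in the other series), and 1, lys-6, was lower. Genes known to respond to Staphylococcus aureus did not move as 1 group, since 5 of 11 were higher, led by clec-71 (log2 fold change 2.87 ± 0.39) and clec-61 (1.95 ± 0.29), while fmo-2 was lower and 5 did not pass. Without QX544 or QX563, 3 were higher. Among 35 genes of the intracellular pathogen response, which answers to microsporidia and viruses, edgeR called 5 higher, a share close to that over all genes. The count was 3 without QX543, QX546 or QX563, and 9 with limma-voom. skr-3 (log2 fold change 0.53 ± 0.07) and pals-6 (1.01 ± 0.24) were the first by p. Of 11 epidermal antimicrobial peptide genes 1 was higher, and of 5 osmotic stress genes none passed edgeR's test (0 or 1 in either direction over the alternatives).

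Enzymes of xenobiotic metabolism were also higher. For cytochrome P450 genes, which carry out oxidation in phase I, 37 of 65 tested were higher and 2 lower, with a median log2 fold change of 0.58. Over all genes 13.3% were higher and 11.5% lower. Their summed level was 861, 1071 and 1353 CPM in series C, against 501, 743 and 1113 CPM in the other series. cyp-13A5 had 6.98, 20.5 and 88.7 CPM in series C, against 1.49, 4.60 and 39.0 CPM in the other series (log2 fold change 2.13 ± 0.30), and cyp-35A1, known as a xenobiotic-inducible gene, had 0.183, 0.970 and 1.63 CPM, against 0, 0.177 and 0.740 CPM (log2 fold change 2.08 ± 0.27), so the ranges of both overlapped. cyp-13A1 and cyp-13A7 had log2 fold changes of 1.35 and 1.92 at low levels, and the near-identical members of this cluster on chromosome II may share reads.

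UDP-glucuronosyltransferases, conjugating enzymes of phase II, had 23 of 63 higher and 4 lower (2 lower without QX543 or QX563, median log2 fold change 0.27), with ugt-16 (1.35 ± 0.13), ugt-44 (1.25 ± 0.13) and ugt-2 (0.92 ± 0.13) first by p. Of 40 glutathione S-transferases 10 were higher (25%, against 13.3% of all genes) and 3 lower (7.5%, against 11.5% of all genes). gst-7 had medians of 115 CPM in series C and 71.3 CPM in the other series, and gst-5 of 89.4 CPM in series C and 52.1 CPM in the other series. For gst-5 the medians of series A and B, 77.1 and 76.4 CPM, were close to that of series C, and the contrast with B did not pass (edgeR adjusted p = 0.108). gst-14 had medians of 1.89 CPM in series C and 0.317 CPM in the other series, and gst-4, above, was lower. Among 16 antioxidant genes 2 were higher, a share close to that over all genes, and 3 lower. ctl-2, the peroxisomal catalase, was higher (0.54 ± 0.07) and sod-2, a mitochondrial superoxide dismutase, lower (-0.22 ± 0.05).

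Genes of mitochondrial translation and respiration encoded in the nucleus were lower by small amounts. Of 70 proteins of the mitochondrial ribosome, the complex whose translation Dox impairs, 69 were lower in series C, against 11.5% of all genes, and 27 were lower in all 6 contrasts. The median log2 fold change was -0.28, with single genes from -0.44 to -0.13, so nearly every member was shifted and none was shifted far. Their summed level was 1767, 2032 and 2524 CPM in series C, against 1987, 2527 and 3012 CPM in the other series, and the ranges overlapped. The highest series C library was QX564, with 2524 CPM, close to the median of the other series.

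mrpl-51 had 23.3, 26.8 and 33.2 CPM in series C, against 26.9, 35.01 and 44.1 CPM in the other series, and mrpl-41 had 21.4, 25.1 and 33.3 CPM, against 26.9, 36.1 and 53.2 CPM in the other series. For mrpl-28 the log2 fold change was -0.24 ± 0.03. The 1 member that did not pass was mrpl-22 (-0.13 ± 0.06, edgeR adjusted p = 0.104). Under every alternative run, other tools, scalings, filters, covariates and the removal of each series C library or of each other series, 68 to 70 of the 70 were lower.

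Nuclear-encoded subunits of oxidative phosphorylation followed, with 24 of 31 lower and none higher (median log2 fold change -0.18). nuo-1, of complex I, had medians of 289 CPM in series C and 343 CPM in the other series (log2 fold change -0.22 ± 0.05), and isp-1, the Rieske protein of complex III, had a log2 fold change of -0.19 ± 0.04. The complex I subunits lpd-5 and ndub-8 had -0.26 ± 0.06 and -0.24 ± 0.05. None of these 31 was lower in all 6 contrasts, but the list does not hold every such subunit. By the first letters of the symbol, 1 of 8 ndub genes and 2 of 15 cox genes were lower in all 6. Of 11 tested protein-coding genes of mitochondrial DNA none passed the test in either direction (edgeR, with 0 to 2 lower over the alternatives, median log2 fold change -0.06), and their summed level was 4468 to 9161 CPM in series C and 4224 to 18430 CPM in the other series.

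The mitochondrial unfolded protein response, whose chaperones and proteases rise when mitochondrial protein balance is disturbed, had 9 of 16 genes lower and none higher (median log2 fold change -0.17). hsp-6, the mitochondrial HSP70 and a common reporter of this response, had 438, 516 and 639 CPM in series C, against 485, 673 and 931 CPM in the other series (log2 fold change -0.31 ± 0.07). hsp-60, the mitochondrial chaperonin, had -0.39 ± 0.12, gfm-1, a mitochondrial translation elongation factor, -0.33 ± 0.08, and clpp-1, a matrix protease, -0.15 ± 0.05. The count was 5 without QX540, QX541 or QX543, so it leaned on single libraries more than that of the ribosomal proteins. Of 78 cytosolic ribosomal proteins 7 were lower (median -0.08), a smaller share than over all genes. That count was 3 or 4 without QX539, QX540, QX541, QX543 or QX546, 19 without QX562, and 54 with stage scores as covariates.

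**Figure D3:**
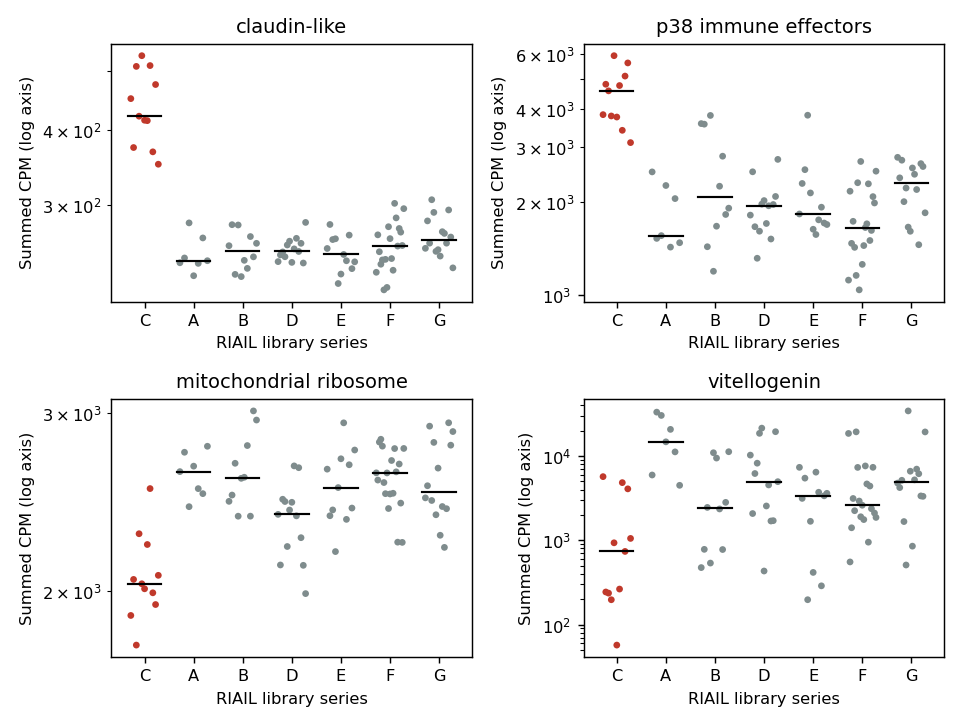
Summed CPM (log axis) of the claudin-like genes, p38 immune effectors, mitochondrial ribosomal proteins and vitellogenins in each RIAIL library by series, with series C in red and the series median as a bar. The claudin-like sum is 351 to 530 CPM in series C and 217 to 306 CPM in the others, while the other 3 lists overlap.

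Genes of propionate breakdown, which worms switch on when vitamin B12 is scarce, were in part lower. Of 17 genes 7 were lower and none higher (median log2 fold change -0.13), and 4 without series F. With stage scores as covariates 9 were lower, and with a vitellogenin score added 11. acdh-1, the acyl-CoA dehydrogenase used as a sensor of vitamin B12 in the diet, had 25.8, 114.1 and 476 CPM in series C, against 68.4, 419 and 1054 CPM in the other series (log2 fold change -1.52 ± 0.32). 47 of the 74 other libraries were at or below the highest of series C, QX564, so the overlap was wide. Series A was as low, with a median of 102 CPM of acdh-1 (log2 fold change of series C against A -0.17, edgeR adjusted p = 0.760), and ech-6 also did not pass against A, B or G. hach-1 and ech-6 of the same shunt had -0.39 ± 0.08 and -0.33 ± 0.10, and mce-1, of the B12-dependent route, -0.45 ± 0.08.

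Genes taken as targets of NHR-49, a nuclear receptor of lipid metabolism, were split. fmo-2 and acs-2, an acyl-CoA synthetase that is induced by fasting, were lower (acs-2 had medians of 0.728 CPM in series C and 3.68 CPM in the other series and a log2 fold change of -2.72 ± 0.56), as was cpt-5. ech-9 (1.52 ± 0.28), K05B2.4 (0.93 ± 0.17), ech-1.1 and fat-7, a stearoyl-CoA desaturase (0.85 ± 0.25), were higher, and 5 of the 12 did not pass. Desaturases as a family had 2 of 7 higher and 2 lower, with fat-1, the omega-3 desaturase, lower (-0.32 ± 0.07). Of 7 acyl-CoA oxidases 1 was higher and 1 lower. Of 12 genes of the hypoxia and hydrogen sulfide response 1 was higher and 2 lower, and of 10 metal genes 2 were lower. In lists this short, the counts of oxidase, hypoxia and metal genes are near the shares over all genes, 13.3% higher and 11.5% lower.

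The unfolded protein response of the endoplasmic reticulum had 10 of 18 genes higher and none lower (median log2 fold change 0.23), and 6 without series F. pdi-3, a protein disulfide isomerase, had 1278, 1429 and 1626 CPM in series C, against 809, 1201 and 1663 CPM in the other series, a wide overlap (log2 fold change 0.27 ± 0.06). enpl-1, the endoplasmic HSP90, and the stress sensors atf-6 and ire-1 had 0.42 ± 0.09, 0.30 ± 0.06 and 0.23 ± 0.05. Heat shock genes had 4 of 12 lower and none higher, and 2 without QX562. The small heat shock proteins hsp-16.41 (-1.72 ± 0.39) and hsp-16.2 (-1.12 ± 0.35) lie 220 bases apart on chromosome V, and closely related copies of each may share reads. Neither passed against series D (edgeR adjusted p = 0.214 for hsp-16.41 and 0.834 for hsp-16.2), where hsp-16.2 had a median of 3.27 CPM, against 3.21 CPM in series C. Of 33 proteasome genes 1 was lower, but 13 with stage scores as covariates and 20 with a vitellogenin score added.

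Among genes that track the age of the worm, vitellogenins and oocyte genes were called lower by edgeR in larger shares than all genes (11.5%). All 6 vitellogenins, yolk proteins that the adult intestine makes, were lower (median log2 fold change -2.43), but only 1 of them in all 6 contrasts. Their summed level was 57.05, 738 and 5706 CPM in series C, against 197, 3976 and 34410 CPM in the other series. The other series differed widely, with a median sum of 14780 CPM in A, 4972 in D, 3377 in E, 4974 in G, 2610 in F and 2409 in B. The spread within series C was wide, with QX541, QX564 and QX539 at 5706, 4844 and 4085 CPM and QX562 at 57.05 CPM. vit-1, vit-4, vit-5 and vit-6 had log2 fold changes of -2.79 ± 0.62, -2.35 ± 0.64, -3.19 ± 0.87 and -1.94 ± 0.61, and close copies in this family may share reads. With stage scores as covariates 4 of the 6 were lower.

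Oocyte genes were lower in 15 of 16 cases (median log2 fold change -0.85), among them cpg-1 (-1.12 ± 0.36) and perm-2 (-1.13 ± 0.37) of the eggshell, in 7 without QX544 and in 9 without QX563. With limma-voom 4 of the 16 were lower, and without series F also 4. Series B had a lower median oocyte score (-0.952) than series C, and cpg-1 did not pass against series A, B or E. With the stage scores, which contain these genes, as covariates none was lower and 1 was higher. Of 38 sperm genes 1 was lower (median -0.79), 4 without QX541 and 29 without series B. Of 25 molting genes 4 were higher (median 0.68), with lrp-1 (0.68 ± 0.21), mlt-11 (1.07 ± 0.39) and qua-1 (0.87 ± 0.32) first by p. The molting count ran from 1 (without QX542, QX543, QX544, QX562 or QX563) to 11 (without QX564) as single libraries were left out. Collagens of the cuticle had 6 of 136 higher and 8 lower, with 39 lower without QX564, 20 without QX541 and 5 without QX562, and 2 or 3 higher without QX543, QX544, QX562 or QX563. Of 8 adult cuticle genes 1 was lower, 3 without QX541 and 6 without QX564, and of 20 genes of replication and the cell cycle 1 was higher. By edgeR with none of the alternative settings, the called shares of the sperm, molting, collagen, cuticle and replication lists were near or below those over all genes. Other settings moved these counts. Molting genes higher were 14 with limma-voom, with equal weights for series, or without series B or E. They were 13 with all 95 libraries, 1 without series A, D, F or G, and 0 with stage scores. Collagens lower were 20 with limma-voom, 24 with DESeq2, 21 with all 95 libraries, 29 without series B and 1 with stage scores. Over all genes 13.3% were higher and 11.5% lower. The part of stage in the differences above was not tested beyond the fit with stage scores, in which 1549 genes were higher and 1631 lower, 1181 and 1055 of them shared with the fit without these scores.

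Markers of other cell types were measured in every group. Of 13 intestinal markers 4 were higher and 2 lower, namely the proteases asp-3 (0.56 ± 0.07), cpr-1 (1.03 ± 0.23) and asp-1 (0.33 ± 0.07) with ges-1, and ftn-1 (-0.93 ± 0.28), a ferritin, with mtl-2, a metallothionein. The summed intestinal level was 9445 to 12420 CPM in series C and 5496 to 11840 CPM in the other series, and elt-2, the intestinal GATA factor, did not pass. Of 18 neuronal markers 6 were higher (3 without QX562, 1 with stage scores). Of 14 body-wall muscle markers 3 were lower (1 without QX539 or QX562, 0 without series F). That count was 5 with DESeq2, with RLE scaling, or without series D or G. Of 17 pharyngeal markers 1 was higher and 3 lower (7 lower without QX541 or QX564, 1 without QX540). With limma-voom or DESeq2, 6 pharyngeal markers were lower. Of 10 markers of hypodermis and seam 2 were higher. Of 7 male genes none passed the test (edgeR, with 0 or 1 lower over the alternatives). Over all genes 13.3% were higher and 11.5% lower, and counts of 2 or 3 in lists this short are near these shares. The part of these markers in the immune and detoxification lists was not tested.

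**Figure D4:**
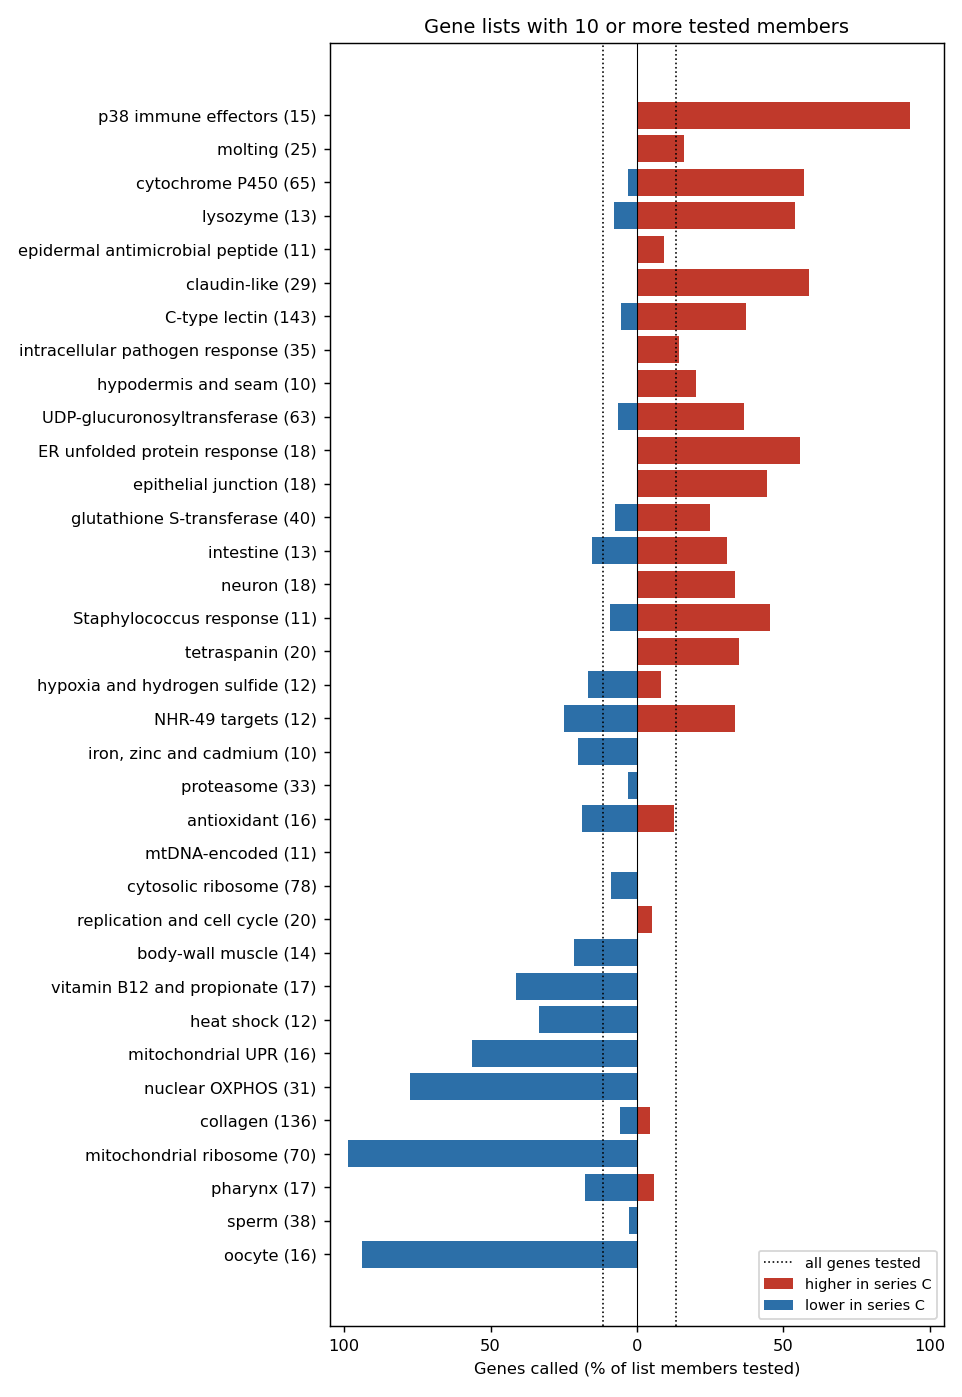
Share of the tested members of each list (number in brackets) that were higher (red, to the right) or lower (blue, to the left) in series C, in percent, for lists with 10 or more tested members ordered by median log2 fold change. The dotted lines mark all genes tested, 13.3% higher and 11.5% lower. Of the lists shown, the p38 immune effectors have the highest share of genes higher (14 of 15) and the mitochondrial ribosome the highest share lower (69 of 70).

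The CB4856 library of series C was the only sample of that series that shares its strain with libraries of other series, and it had not entered the comparison above. It was set against the other 5 CB4856 libraries in a fit on all 10 parental libraries, with 1 library in the group of interest, so the spread of that library was taken to be that of the others. Separate cultures are not stated for these 10 libraries, so the p-values here measure only the spread between libraries, which may be technical. By edgeR, 9 of 16732 genes were higher in C2 (0.0538%) and none was lower (0%), at 1083 genes with an unadjusted p under 0.05. limma-voom called 20 higher and none lower, and DESeq2 83 and 33. Without the N2 library B2 edgeR called 52 higher and 3 lower. The titles give the parental libraries batch numbers, and with these as a block over the 8 numbered libraries no gene was called, against 4 in the same 8 libraries with no block.

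The levels of the markers in C2 are those of 1 library, with no replicate. cld-1 had 24.1 CPM in C2, against 0.0439 to 0.351 CPM in the other CB4856 libraries (log2 fold change 6.82, edgeR adjusted p = 0.00868). clc-1 had 98.6 CPM in C2, against 38.5 to 46.95 CPM (adjusted p = 0.104 by edgeR), and tsp-2 had 8.35 CPM, against 0.439 to 1.38 CPM (adjusted p = 0.119 by edgeR). cld-9 had 60.8 CPM in C2, against 19.9 to 36.8 CPM. For fmo-2, 2 reads or 0.0883 CPM were counted in C2, against 6.52 to 47.4 CPM in the other CB4856 libraries (adjusted p = 0.498 by edgeR). Each of the 5 lay outside the range of the other CB4856 libraries on the same side as in the RIAILs. Of their p-values only that of cld-1 was under the threshold, and it was not with the batch numbers as a block. F27E5.9 (17.4 CPM in C2, against 3.74 to 5.38 CPM), clec-17 (44.7 CPM, against 2.44 to 3.74 CPM) and clec-71 (149 CPM, against 9.91 to 27.9 CPM) also passed, with edgeR adjusted p of 0.0167, 0.0107 and 0.0235.

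The N2 library with batch number 1, B2, belongs to series B and had 0.291 CPM of cld-1 and 6.64 CPM of fmo-2. Both values lay within the range of the RIAILs outside series C.

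The other genes were described by the rank of C2 among the 6 CB4856 libraries, with no test. Of 2181 genes that were higher in series C RIAILs and were tested in the parental libraries, 71.2% were above all 5 other CB4856 libraries in C2, against 21.2% of all genes tested in both fits (21.1% of the 16417 tested in the RIAILs), and their median log2 fold change in C2 was 0.50. Of 1887 genes that were lower, 59.1% were below all 5, against 27.4% of all genes tested in both fits (27.3% of the 16417), with a median of -0.22. Among genes higher than each of the 6 series, 240 of 251 were above all 5 in C2 (95.6%), and among genes lower than each, 136 of 172 were below all 5 (79.1%). All 11 genes with separate ranges above the other series were above all 5 in C2.

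By list, 14 of 15 p38 effectors, 16 of 29 claudin-like genes, 40 of 65 cytochrome P450 genes and 52 of 136 C-type lectins were above all 5 other CB4856 libraries in C2, against 21.2% of all genes. 44 of 70 mitochondrial ribosomal proteins (62.9%) and all 6 vitellogenins were below all 5, against 27.4% of all genes, while for nuclear subunits of oxidative phosphorylation 11 of 31 (35.5%) lay nearer that share. Of 11 genes of mitochondrial DNA 10 were below all 5, and in the RIAILs 9 of the 11 had a negative log2 fold change that did not pass the test. acdh-1, with 499 CPM in C2, lay within the range of the others (235.3 to 1113 CPM). For the mitochondrial unfolded protein response 4 of 16 genes (25%) were below all 5, close to the share of all genes. Cytosolic ribosomal proteins went the other way in C2. All 78 had a negative log2 fold change in the RIAILs, while in C2 71 had a positive one, with 24 above all 5 and 3 below. All 16 oocyte and 34 of 38 sperm genes were below all 5 in C2 and 16 of 25 molting genes above, so C2 differed from the other CB4856 libraries in stage genes too. The part of stage in the differences of C2 was not tested.

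Whether the difference of series C was itself different in CB4856 and in the RIAILs was tested in 1 fit over 95 libraries. Of 17948 genes, none had a more positive difference in CB4856 (0%) and 1, frpr-15, a neuropeptide receptor named here after its value was seen, a more negative one (0.00557%). None of the other genes named here was called, at 93 genes with an unadjusted p under 0.05 (edgeR). With 1 CB4856 library in series C, this does not show that the differences were equal.

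**Figure D5:**
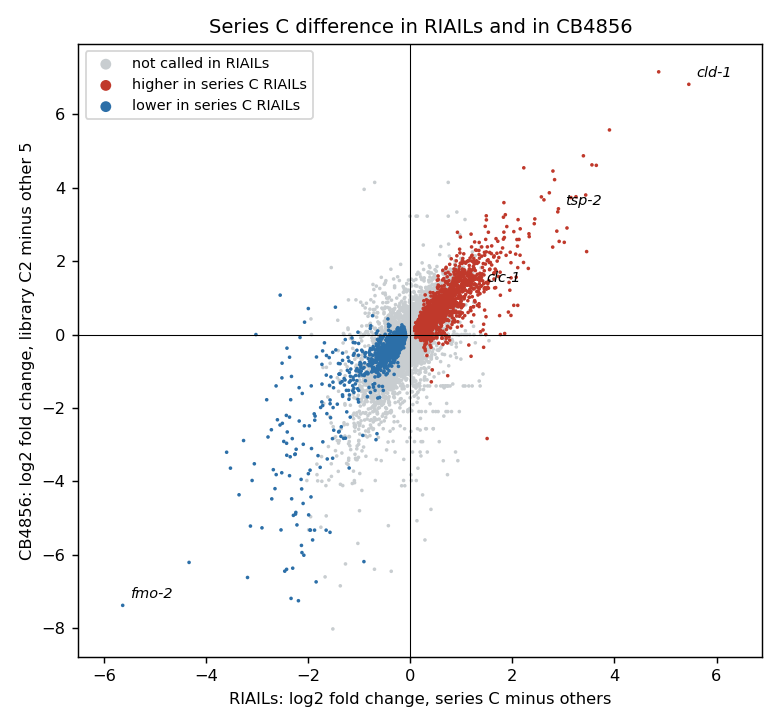
Log2 fold change of each gene in CB4856 (library C2 minus the other 5 libraries, vertical) against that in the RIAILs (series C minus the other series, horizontal), with genes called higher in the RIAILs in red and lower in blue. Of the red genes 95.2% lie above 0 on the vertical axis, against 47% of all genes, and cld-1 and fmo-2 lie in opposite corners.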

How the data were processed

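RNA of whole worms was sequenced on the BGISEQ-500 platform. Per the submitters' notes and the methods, reads were checked with FastQC and aligned to WBcel235 with STAR (version 2.73a), and the authors deposited raw read counts per gene, 46904 genes in 95 libraries. The sources used here name neither the counter nor its strand setting nor the annotation release. All columns were matched to samples by library name, and no pair of libraries was identical. Totals were 22121202 to 23879871 counts, and precision at low counts is limited accordingly.

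The test was edgeR's quasi-likelihood test (edgeR 4.0.16 under R 4.3.3) after filterByExpr and TMM scaling, with a Benjamini-Hochberg adjusted p under 0.05, over 85 RIAILs, and over 10 parental libraries for C2. The study used limma-voom, which was run as an alternative (limma 3.58.1) together with DESeq2 1.42.0, RLE scaling, other filters, equal weights for series, stage scores as covariates, all 95 libraries, and the removal of QX501 and QX505, of each series C library, of each other series and of each parental library. The fit with a vitellogenin score and the test of the difference between CB4856 and RIAILs were added after seeing the data. Log2 CPM used a prior count of 2. Library properties were compared by a two-sided permutation test of means (100000 resamples, scipy). Scripts were tested on simulated data.

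Genes named were the 5 markers, the 15 higher and 10 lower genes with the smallest p at a mean log2 CPM of at least 1, up to 4 of each list by smallest p, the 5 with the widest gap between the groups, and those marked as chosen later. The 42 gene lists were written from general knowledge. The members, the 5 markers and the lists were chosen with earlier results of these data known. The batch numbers of the titles were taken to pair N2 and CB4856 libraries because the titles call them batches, and the deviations of each pair from the strain means correlated at r = 0.684, 0.194, 0.0878 and -0.511. Promoter and protein sequences were not analysed here.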

Additional observations from a re-analysis of the deposited data

Results flagged for a closer look

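In groups of 4 to 10 libraries, 1 value was set apart where its gap to the nearest other, divided by the range, exceeded Dixon's critical value, which chance does in about 1 of 20 groups. Of 41 groups examined, 17 did so. Among the 6 CB4856 libraries, 26 genes were examined, the markers and the genes with smallest p or widest gap in the series C comparison. Of these genes 14 had such a value, in 13 cases that of C2. Chosen for a series C difference and read in the same libraries, these genes are not independent, so 1 of 20 is no yardstick for them. C2 was the highest for cld-1 (ratio 0.987), tsp-2 (0.881), F27E5.9 (0.88), Y65B4BR.1 (0.863), clc-1 (0.859), B0024.4 (0.847), dhs-22 (0.8), dod-19 (0.786), cpr-3 (0.785), Y37H2A.14 (0.756), C49C3.9 (0.703) and tag-120 (0.698), and the lowest for C30G12.2 (0.686). For fmo-2 the value set apart was instead the highest, 47.4 CPM in library G2 (ratio 0.799), while that of C2 was the lowest. Series G of the RIAILs also had the highest median of fmo-2 among the series.

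Outside series C, the N2 library B2 was the highest of 4 for cld-1, with 0.29 CPM (ratio 0.995), which is far below every series C library. QX555 was the highest of series B for fmo-2, with 19.99 CPM (ratio 0.574), and QX531 the highest of series A for tsp-2, with 1.56 CPM (ratio 0.594).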

How the results depend on the processing

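Counts of genes that differed between series C and the other series were 1549 to 2832 higher and 1464 to 3117 lower over all alternatives, and the 5 markers passed the threshold with the same sign in every one of them. The count of genes lower moved most without series B, to 3117. Over the removal of each series C library in turn, 1664 to 2245 genes were higher and 1502 to 2121 lower. For the CB4856 library C2, genes higher were 20 with limma-voom, 83 with DESeq2, 17 with no filter on low counts and 5 with the 6 CB4856 libraries only, and genes lower were 33 with DESeq2 and 1 with the 6 CB4856 libraries only. As single parental libraries were left out, 4 to 52 genes were higher and 0 to 3 lower, with 52 without N2 library B2, 4 without CB4856 library E2, 5 without CB4856 library F2 and 5 without N2 library F42. With the batch numbers as a replicate block over 8 libraries 0 genes were higher, against 4 with no block. With stage and vitellogenin scores as covariates, chosen after seeing the data, vit-6 had a log2 fold change of 0.011, perm-2 0.25 and qua-1 -0.069, none past the threshold. Of the values of named genes under alternatives, 2736 kept their sign and side of the threshold, 37 lost the call, 4 gained one and 3 reversed. The cause of these changes was not tested, and where libraries were left out their number was also smaller. Low counts limit genes such as fmo-2 in series C, where 2 to 11 reads were counted in each library. Since each RIAIL has 1 library and 1 series, strain and series cannot be told apart in the RIAILs, and only the CB4856 library C2 bears on this.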

Other observations

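Genes that differed were spread unevenly over the chromosomes. On X, 20.1% of the 2283 genes tested were higher in series C and 4.6% lower, and on V 17% were higher and 9.89% lower. On chromosome I, 7.81% were higher and 15.9% lower, and on III 10.7% were higher and 15.9% lower. With stage scores as covariates fewer genes were higher in all, 1549 against 2186. The share higher was then 11.7% on X and 13% on V, against 5.99% to 9.84% on chromosomes I to IV. The share lower in that fit was 5.12% on X, 13.9% on I and 14% on III.

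Families read from the first letters of the gene symbol, described after their values were seen, showed further groups. Of 13 nspg genes 12 were higher in series C, 7 of them in all 6 contrasts, and 11 of the 13 were above all 5 other CB4856 libraries in C2. Of 8 cpr genes, the cathepsin B-like proteases, 6 were higher, of 10 dod genes 6, of 39 oac genes, named as O-acyltransferases, 17, and of 30 cest genes, carboxylesterases, 14. On the other side, 6 of 8 puf genes, RNA-binding proteins of the germ line, 7 of 11 him genes of meiosis and 5 of 8 cct genes, subunits of the cytosolic chaperonin, were lower. So were all 8 ndub genes and 11 of 15 cox genes. Over all genes tested, 13.3% were higher and 11.5% lower.

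Some of the named genes that were higher lie close to each other, with overlapping ranges in several of them. By the distances between named genes, other genes between them not counted, tsp-2 and tsp-1 have 65 bases between them, clec-71 and clec-174 on chromosome IV 279 bases, F27E5.9 and asah-2 on II 3764 bases, cld-1 and dod-24 on IV 3834 bases, and dct-17 and cld-9 on V 18396 bases. All of these were higher in series C. adh-1 and sma-1 on V, 9798 bases apart, went opposite ways.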
